A study of Mus musculus with 3 samples.

Results

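Cranial paraxial mesoderm cells were looked for among the single cells of 3 mouse embryos at embryonic day 8 by the unique molecular identifiers (UMIs, 1 per captured transcript molecule) that each cell barcode held for 10 genes. A barcode was taken when it held at least 1 UMI of Tcf15, UMIs of at least 2 of the 4 genes Tbx1, Foxc2, Prrx2 and Twist1, and 0 UMIs of each of Aldh1a2, Tbx6, Sox2, Myl7 and Isl1. Of 22168 barcodes that passed quality control, 125 met this rule, and they are called Tcf15+ Aldh1a2- cells here. All 3 embryos were wild type on a C57BL/6 x 129 SvEv background, with no allele, treatment or transgene compared, and they were male by the study's genotyping. The stage label allows 0 to 2 somites, while the protocol selected embryos of 0 to 1 somite and removed the extraembryonic tissue. Each embryo was dissociated whole and made into 1 droplet library, so that the embryo is the replicate and the place of a cell in the embryo was not recorded.

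Paraxial mesoderm lies beside the neural tube. In the trunk it is laid down as presomitic mesoderm and cut into somites under a clock of Notch, FGF and Wnt signals, whereas the cranial part stays unsegmented and gives rise to muscles of the head, to parts of the skull and to endothelium. Tcf15 is a basic helix-loop-helix (bHLH) factor of paraxial mesoderm that somites need to become epithelial. Tbx1 is a T-box factor of pharyngeal and head mesoderm, Foxc2 a forkhead factor of paraxial mesoderm, Prrx2 a homeobox factor of mesenchyme and Twist1 a bHLH factor of head mesenchyme. The 5 genes held at 0 mark neighbouring tissues. Aldh1a2 makes retinoic acid in trunk mesoderm, Tbx6 marks presomitic mesoderm, Sox2 the neural plate, Myl7 heart muscle and Isl1 the second heart field.

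The Tcf15+ Aldh1a2- cells were rare in every embryo. They numbered 19 of 6129 barcodes in embryo 1, 66 of 8116 in embryo 2 and 40 of 7923 in embryo 3. These are shares of 0.31% (exact binomial 95% interval 0.187 to 0.484), 0.813% (0.629 to 1.03) and 0.505% (0.361 to 0.687), with a mean of 0.543% ± 0.254 (SD, n = 3). The deepest library, embryo 1, had the lowest share. Its barcodes held a median of 26705 UMIs, against 14461 in embryo 2 and 16242 in embryo 3. The condition of 0 UMIs for 5 genes removed most candidates, since 1052, 908 and 1022 barcodes met the conditions on Tcf15 and the 4 markers, and 823, 650 and 755 of those held an Aldh1a2 UMI. The median UMI count was 37020, 23410.5 and 30028 in the candidates and 22377, 11611.5 and 13468 in the cells that met the whole rule. When every barcode was thinned to 5000 UMIs before the rule was applied, 302 barcodes met it and the shares were 1.49%, 1.49% and 1.17%, with a mean of 1.38% ± 0.186 (SD, n = 3). The share thus moved with depth, and the order of the embryos at the deposited depth was not kept after thinning. Few barcode sequences recurred between libraries after quality control, namely 20 between embryos 1 and 2, 14 between embryos 1 and 3, and 17 between embryos 2 and 3.

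**Figure D1:**
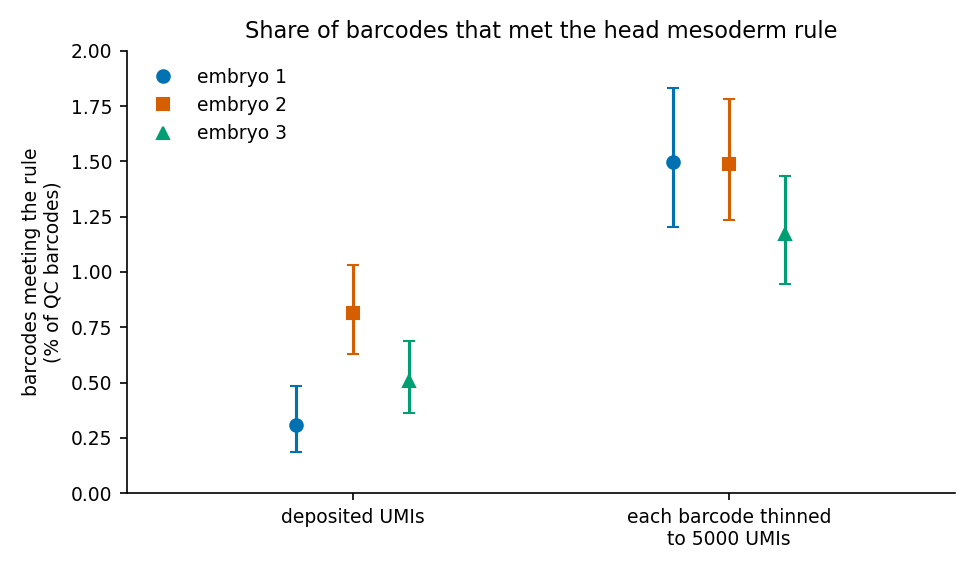
Share of quality-controlled barcodes (%, vertical axis) that met the rule in each embryo, at the deposited depth (left) and with each barcode thinned to 5000 UMIs (right). Points are embryos and bars are exact 95% binomial intervals. Embryo 1 is lowest on the left (0.31%) and level with embryo 2 on the right (1.49%).

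The cells were chosen by their UMIs of the 10 rule genes, so these genes are given as a description only. Tcf15 (chr2:152143561-152149097, plus strand, GRCm38) stood at 353, 483 and 267 UMIs per 1000000 (CPM) in the summed UMIs of embryos 1, 2 and 3, against 38.4, 37.1 and 30.9 CPM in all other barcodes. Tbx1 (chr16:18580979-18590671, minus strand) stood at 94.3, 170 and 72.8 CPM against 11.6, 8.30 and 8.87 CPM. Twist1 (chr12:33957671-33959829, plus strand) stood at 251, 329 and 235 CPM against 67.9, 61.0 and 61.9 CPM. Every embryo was higher in the cells for these 3 genes. The rule required Tcf15, and it selected for Tbx1 and Twist1 without requiring either. All 4 markers were seen in 66 of the 125 cells, 3 of them in 28 cells and exactly 2 in 31 cells. Twist1 was detected in 100%, 100% and 92.5% of the cells of the 3 embryos, and Tbx1 in 78.9%, 75.8% and 55%. Tcf15 was at 1 UMI in 30 cells, at 2 UMIs in 10 and at 3 or more in 85.

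At the thresholds, Foxc1, a close relative of Foxc2, was detected in 16.7% of the 30 cells with 1 Tcf15 UMI and in 6.05% of the 347 barcodes that failed only for want of a Tcf15 UMI. Fst, which encodes the secreted activin and BMP antagonist follistatin, was detected in 33.3% of the former and 10.7% of the latter. Among the 31 cells with exactly 2 of the 4 markers Fst was detected in 32.3%, against 13% of the 46 barcodes with 1 marker. The 163 barcodes that failed by a single UMI of 1 of the 5 genes held at 0 had Foxc1 in 59.5% and Fst in 83.4%, where the 125 cells had 47.2% and 75.2%.

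Markers outside the rule matched the label only in part. Of 14 head mesoderm markers that the rule did not use, Msc, a bHLH factor of jaw muscle precursors, was at 0 UMIs in the 125 cells, and Cyp26c1, Lhx2 and Tcf21 were at 1, 3 and 5 UMIs. At least 3 of the 14 were detected in 61.6% of the 125 cells, in 72.4% of the 87 cells with a Tbx1 UMI and in 36.8% of the 38 cells without one. At least 3 of 10 endothelium markers were detected in 18.4% of all cells, in 6.90% (6 of 87) of the Tbx1+ cells and in 44.7% (17 of 38) of the Tbx1- cells. By Tcf15 level, the endothelium markers reached that number in 53.3% (16 of 30) of the cells with 1 UMI and in 2.35% (2 of 85) of those with at least 3. At least 3 of 19 somite and presomitic markers were detected in 42.5% of the Tbx1+ and 28.9% of the Tbx1- cells, and at least 3 of 15 heart markers in 32.2% and 36.8%. At least 3 markers of lateral plate, allantois and extraembryonic mesenchyme were detected in 5.75% of the Tbx1+ and 34.2% of the Tbx1- cells, and at least 3 of 10 endoderm markers in 13.8% and 26.3%. In embryo 1, where 4 cells were Tbx1-, all 4 had at least 3 head mesoderm markers and 1 had at least 3 endothelium markers. The head list did not set the cells apart from barcodes that also hold Aldh1a2, most of which meet the rule's conditions on Tcf15 and the 4 markers too. The place of the class in the head was not established. Nor was the label established for the cells with heart, endothelium, allantois or endoderm markers. Over all 125 cells, at least 3 heart markers were detected in 33.6%, against 38.4% for the somite and presomitic list. No background share was measured for these lists, so detection of their markers alone does not give the tissue of a cell. The lists differ in length, and these shares pool cells of 3 libraries and were not tested.

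A few cells stood apart within the sums. Of the 125 cells, 3 held at least 50 UMIs of Ttr, a carrier protein gene of yolk sac endoderm, and another 2 held at least 20 UMIs of Hbb-bh1, an embryonic globin gene. In embryo 1 the Ttr-rich cell held 46708 UMIs, which is 8.63% of all UMIs of the 19 cells, with 230 UMIs of Ttr. In embryo 3 a cell held 73 UMIs of Ttr and 43 UMIs of Hbb-bh1 were found in another.

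Another cell of embryo 1 was the deepest of the 125, with 99027 UMIs, 18.3% of those of the 19 cells, and 8207 genes. It held 220 UMIs of Trh, which encodes a hormone precursor found in endoderm, or 97.3% of all Trh UMIs in the cells. It also held 328 UMIs of Spink1, an endoderm gene, 44 of Epcam, an epithelial adhesion gene, and 87 of Cdkn1c. Of the rule genes it held 2 UMIs of Tcf15, 1 of Tbx1, 4 of Twist1 and 0 of Foxc2 and Prrx2. Its doublet score was not among the top 6% of barcodes. Of the other 5 cells 3 were in the top 6%, the Ttr-rich cell of embryo 2 and both cells of embryo 3, and no other cell of the 125 was. The summed CPM of 10 endoderm markers was 2675 in embryo 1, against 598 and 552 in embryos 2 and 3. Without the 5 cells it was 1432.5, 142 and 180 CPM, and without the Trh-rich cell as well it was 65.8, 142 and 180 CPM.

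The cells of each embryo were added up to 1 sum, of 540950, 881470 and 618190 UMIs. These sums were set against those of another class with edgeR's quasi-likelihood test with Benjamini-Hochberg adjustment over all genes tested. The 4 class comparisons share the same 3 sums of Tcf15+ Aldh1a2- cells and are not independent of each other. The rule genes were left out of every count of calls. Other genes that vary with them from cell to cell are not independent of how the cells were chosen, so that the folds describe the class that the rule drew. With 1 animal and 1 library per embryo, the p-values measure the spread between these 3 embryos.

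Against all other barcodes, the Tcf15+ Aldh1a2- cells were higher in the transcription factor genes Foxc1, Prrx1, Six2 and Pax3, in the collagen genes Col26a1 and Col23a1 and in Aplnr and Cxcr4, receptors for secreted peptides. They were lower in the transcription factor genes Cdx1, Hoxb1, Pou5f1, Osr1, Gata5 and Hes7. Of these, Osr1, Gata5 and Hes7 held only 2, 5 and 8 UMIs in the cells, so their falls are a description only. Of 15303 genes tested 120 passed at an adjusted p of 0.05 (0.784% of the genes tested), with 75 higher (0.49%) and 45 lower (0.294%), and the median log2 fold change of all genes tested was -0.07. With the embryo as a block, which fits the pairing of the 2 sums of an animal, 388 genes passed, and DESeq2 called 403 (299 higher and 104 lower). Without embryo 2 the count was 14 and without embryo 3 it was 3, so the number of calls rested on these libraries. Without the 5 Ttr-rich or Hbb-bh1-rich cells 210 passed, and without the 6 cells 335 passed, with 139 higher and 196 lower.

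Of the 14 head mesoderm markers outside the rule 12 were tested, 4 were higher, 0 were lower and 8 did not pass, with a median log2 fold change of 0.89. By DESeq2 5 of the 12 were called. Six2, a homeobox factor of head mesenchyme, stood at 22.2, 25.0 and 8.09 CPM against 2.59, 2.29 and 2.13 CPM. Every embryo was higher in the cells and the groups did not overlap (log2 fold change 2.98, SE 0.38, adjusted p = 0.0068 by edgeR). Prrx1, the homeobox partner of Prrx2 in mesenchyme, stood at 35.1, 77.1 and 63.1 CPM against 21.04, 14.8 and 18.6 CPM. Embryo 1 was the lowest of the 3 and still lay above all other barcodes (log2 fold change 1.71, SE 0.24, adjusted p = 0.0124 by edgeR). Foxc1 stood at 62.9, 51.1 and 45.3 CPM against 28.1, 16.9 and 18.7 CPM. Its groups did not overlap (log2 fold change 1.29, SE 0.23, adjusted p = 0.035 by edgeR). Fst, the most abundant of the 14, stood at 294, 464 and 238 CPM against 133, 98.4 and 97.8 CPM. Embryo 2 was the highest, and the groups did not overlap (log2 fold change 1.59, SE 0.22, adjusted p = 0.0119 by edgeR). Eya1, a transcriptional coactivator of head muscle precursors, had a log2 fold change of 1.55 and did not pass (adjusted p = 0.0919 by edgeR).

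Of 19 somite and presomitic markers 17 were tested, 3 were higher (Pax3, Ripply1, Cer1), 1 was lower (Hes7) and 13 did not pass, with a median of -0.64. Pax3, a paired box factor of dermomyotome and dorsal neural tube, stood at 33.3, 31.8 and 21.03 CPM against 6.77, 8.75 and 5.43 CPM. The groups did not overlap (log2 fold change 2.01, SE 0.29, adjusted p = 0.0124 by edgeR). Meox1, a homeobox factor of somites, stood at 53.6, 117 and 85.7 CPM against 45.8, 30.7 and 26.8 CPM and just failed to pass (log2 fold change 1.33, SE 0.27, adjusted p = 0.0548 by edgeR), although its groups did not overlap. Ripply1 rested on 10 UMIs in the cells. Hes7, the oscillating repressor of the segmentation clock, was lower (log2 fold change -2.58, SE 0.50, adjusted p = 0.0467 by edgeR) on 8 UMIs in the cells. Of these 8 UMIs 6 lay in 1 cell.

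The 15 largest rises by the naming rule, each at 20 CPM or more in the cells, began with Ppp1r1a, which encodes an inhibitor subunit of protein phosphatase 1. It stood at 359, 253 and 267 CPM against 56.1, 35.1 and 49.8 CPM. Embryo 1 was the highest, and the groups were far apart (log2 fold change 2.60, SE 0.19, adjusted p = 6.1e-04 by edgeR). The collagen gene Col26a1 stood at 42.5, 35.2 and 29.1 CPM against 6.98, 5.32 and 6.03 CPM (log2 fold change 2.51). Col23a1, which encodes a transmembrane collagen, stood at 64.7, 62.4 and 59.9 CPM against 16.3, 7.90 and 11.5 CPM (log2 fold change 2.36). Neither collagen overlapped between groups. Aplnr, the apelin receptor of migrating mesoderm and endothelium, stood at 92.4, 82.8 and 79.3 CPM against 27.0, 18.7 and 21.7 CPM (log2 fold change 1.88, SE 0.16). Igfbp5, a secreted binding protein of insulin-like growth factors, stood at 190, 208 and 77.6 CPM against 42.5, 38.9 and 24.4 CPM, with embryo 3 the lowest (log2 fold change 2.16, SE 0.31). Cxcr4, a chemokine receptor, had a log2 fold change of 1.93, and Nnat, an imprinted gene, of 1.91. The others of the 15 were Fgd5, Cer1, Vamp5, Ptgds, Mn1, Pax3, Fhdc1 and Tex15, at log2 fold changes from 1.80 (Tex15) to 2.34 (Fgd5). All 15 had groups that did not overlap, as did 25.5% of all genes tested, and the naming rule asks for the same sign in every embryo.

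The promoters of 2 of these genes are printed because bHLH factors such as Tcf15 and Twist1 bind the E-box, CANNTG, and these 2 held the most E-boxes among the 9 of the 15 with an entry in the RefSeq promoter table (GRCm38.p6). Cer1 encodes a secreted antagonist of Nodal and BMP, and Ptgds the prostaglandin D2 synthase. Each sequence runs from 250 bases before to 50 bases after the start of the gene in RefSeq, 5′ to 3′ on the minus strand, with E-boxes in capitals. For Ptgds the start in GENCODE lies further upstream (gene at chr2:25466709-25470046, minus strand), so the whole RefSeq window is inside that gene model.
Cer1, chr4:82885102-82885401: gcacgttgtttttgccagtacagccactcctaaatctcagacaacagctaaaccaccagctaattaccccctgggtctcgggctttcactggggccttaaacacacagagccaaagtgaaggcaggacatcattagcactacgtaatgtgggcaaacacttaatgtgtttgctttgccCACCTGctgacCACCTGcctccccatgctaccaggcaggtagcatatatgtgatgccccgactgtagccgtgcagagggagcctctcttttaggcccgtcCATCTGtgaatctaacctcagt
Ptgds, chr2:25469700-25469999: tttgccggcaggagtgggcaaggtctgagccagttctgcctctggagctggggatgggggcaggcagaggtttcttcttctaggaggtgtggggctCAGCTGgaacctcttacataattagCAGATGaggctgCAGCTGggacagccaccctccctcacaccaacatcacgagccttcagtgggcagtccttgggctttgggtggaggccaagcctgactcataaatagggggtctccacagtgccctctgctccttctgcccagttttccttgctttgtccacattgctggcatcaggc
Each held 3 E-boxes, and 2 of the 3 in Ptgds were CAGCTG. The motif CANNTG, which reads the same on both strands, was in 6 of the 9 promoters of genes that rose (66.7%), in 6 of 6 of those that fell (100%) and in 72.1% of all 27025 promoters of this length. A share of this kind describes letters and no binding was measured. At the level of RNA, Cer1 stood at 48.1, 36.3 and 35.6 CPM in the cells against 12.3, 5.06 and 7.12 CPM in all other barcodes (log2 fold change 2.25, SE 0.36, adjusted p = 0.0217 by edgeR). Ptgds stood at 57.3, 27.2 and 24.3 CPM against 8.58, 6.07 and 7.38 CPM, with embryo 1 the highest (log2 fold change 2.22, SE 0.30, adjusted p = 0.0106 by edgeR).

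The 10 largest falls by the naming rule began with Pim2, a protein kinase gene, which fell by 2.71 on the log2 scale. Cdx1, a caudal homeobox factor, stood at 22.2, 36.3 and 11.3 CPM against 187, 124 and 128 CPM. The groups lay far apart in every embryo (log2 fold change -2.59, SE 0.29, adjusted p = 0.0057 by edgeR). Hoxb1, the hindbrain and early trunk Hox gene, stood at 11.1, 26.1 and 14.6 CPM against 91.8, 50.2 and 63.4 CPM (log2 fold change -1.92, SE 0.33). Pou5f1, the pluripotency factor Oct4, stood at 33.3, 46.5 and 34.0 CPM against 167, 79.3 and 130 CPM (log2 fold change -1.72, SE 0.29). Neither gene overlapped between groups. Foxb1, a forkhead gene of the neural plate, fell by 2.51 on the log2 scale and Stmn2, which encodes a microtubule regulator, by 1.97. Hes7, Nkx1-2, Cachd1 and Hotairm1 completed the 10. Hotairm1 is a noncoding RNA gene of the Hoxa cluster, and without a stated strand rule its reads may not be told apart from those of an overlapping gene.

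**Figure D2:**
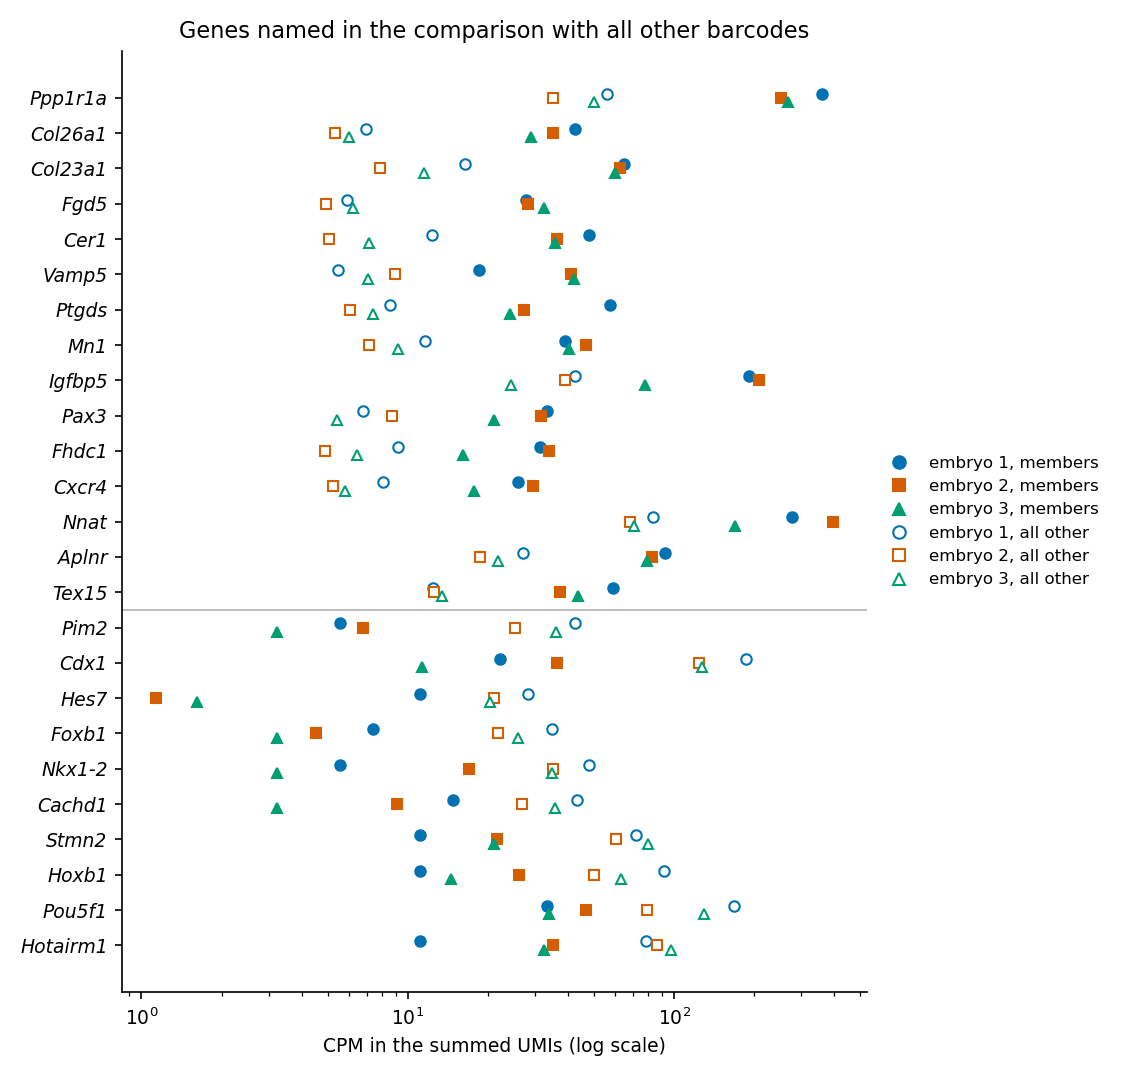
CPM in the summed UMIs (horizontal axis, log scale) of the 15 largest rises and 10 largest falls in Tcf15+ Aldh1a2- cells by the naming rule. That rule takes only genes at 20 CPM or more in the higher class. Filled points are these cells and open points all other barcodes, 1 point per embryo. No filled point overlaps the open points of its gene, and the largest level is that of Nnat in embryo 2 (396 CPM).

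Signalling and cell state lists mostly had few calls against all other barcodes. Of 13 retinoic acid genes tested 1 was higher and 1 lower, with a median log2 fold change of 0.03. Cyp26a1, which breaks retinoic acid down, stood at 86.9, 47.6 and 50.1 CPM against 29.3, 26.0 and 26.1 CPM without overlap (log2 fold change 1.11, SE 0.20, adjusted p = 0.0327 by edgeR). Crabp2, a retinoic acid carrier, fell by 1.16 on the log2 scale (SE 0.22, adjusted p = 0.0401 by edgeR). Of 15 FGF genes only Etv4, a target of FGF signalling, was called, and it was lower (log2 fold change -1.36), with a list median of -0.63. Of 19 Wnt genes Sfrp1, a secreted Wnt antagonist, was called higher (log2 fold change 0.87, SE 0.16), with a median of -0.44. Of 19 BMP genes Fst was higher and Id2 lower, with a median of -0.61. Id2, an inhibitor of bHLH factors, stood at 104, 61.3 and 104 CPM against 169, 195 and 178 CPM, with embryo 2 the lowest (log2 fold change -1.08, SE 0.18, adjusted p = 0.0246 by edgeR). It was the only call among 8 bHLH partners. Of 11 Hedgehog genes edgeR called 0 and DESeq2 called 0, and 4 had an unadjusted p under 0.05. Of 13 Notch genes only Hes7 was called. Without the 6 cells 2 Wnt genes were higher and 2 lower, 1 FGF gene was higher and 2 lower, 1 BMP gene was higher and 3 lower, and 1 retinoic acid gene was higher and 2 lower.

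Of 15 genes of mesenchymal and epithelial state 2 were higher and 0 lower, with a median of -0.15, and without the 6 cells 3 were higher and 6 lower. Their sum was 1697, 850 and 1226 CPM in the cells, and 967, 829 and 1176 CPM without the 6 cells, against 1495, 1604 and 1551 CPM in all other barcodes. Cdh11, a mesenchymal cadherin, stood at 73.9, 99.8 and 59.9 CPM against 27.8, 21.7 and 24.1 CPM without overlap (log2 fold change 1.67, SE 0.18, adjusted p = 0.0057 by edgeR). Zeb1, a repressor of epithelial genes, stood at 33.3, 49.9 and 58.2 CPM against 21.5, 17.4 and 18.2 CPM (log2 fold change 1.30, SE 0.20). Of 22 matrix genes 2 were higher, Fbn2 (log2 fold change 1.33, SE 0.18), which encodes a microfibril protein, and Vcan (1.00, SE 0.17), a proteoglycan of loose mesenchyme. Of 22 Eph, ephrin and guidance genes Epha2, an ephrin receptor, was higher (log2 fold change 2.02, SE 0.34), and the list median was -0.39. Of 21 cell cycle genes edgeR called 0 and DESeq2 called 2, and 3 had an unadjusted p under 0.05, with a median of -0.02. Their summed CPM was 3322, 3298 and 3397 in the cells and 3631, 3236 and 3279 in all other barcodes.

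Markers of other tissues were read in the same sums. Of 15 heart markers Gata5, a zinc finger factor of heart and endoderm, was lower (log2 fold change -2.18) and 14 did not pass, with a median of -1.10. Gata5 held 5 UMIs in the cells. Of 10 markers of lateral plate, allantois and extraembryonic mesenchyme Osr1 was lower on 2 UMIs in the cells, 0 were higher and 9 did not pass, with a median of -0.56. Of 9 neural plate markers Hesx1, Six3 and Pou3f1 were lower and Irx3, a homeobox gene that is also expressed in mesoderm, was higher (log2 fold change 1.24, SE 0.20). Hesx1 and Six3 held 4 UMIs each in the cells. The lower calls of Gata5, Osr1, Hesx1 and Six3 rest on so few UMIs that they are a description only. Of 6 neural crest markers 3 were tested, edgeR called 0, DESeq2 called 0 and 1 had an unadjusted p under 0.05, and the defining genes Sox10 and Tfap2b were at 0 UMIs. The neural crest markers summed to 40.7, 42.0 and 35.6 CPM, with Ets1 the most abundant, against 40.8, 34.2 and 36.9 CPM in all other barcodes. The 10 endothelium markers summed to 120, 571 and 804 CPM against 170, 237 and 241 CPM, with Egfl7 the most abundant and no marker at 0. Embryo 1 lay below all other barcodes and embryos 2 and 3 above. Of these 10 edgeR called 0, DESeq2 called 1, and 7 had an unadjusted p under 0.05, with a median log2 fold change of 1.59. Of 10 endoderm markers edgeR called 0 and DESeq2 called 2, and 5 had an unadjusted p under 0.05. Without the 6 cells 8 of the 10 endoderm markers were lower, with a sum of 65.8, 142 and 180 CPM against 1396, 2995 and 2273 CPM in all other barcodes, and 5 were lower with the embryo as a block. Of 7 surface ectoderm markers tested edgeR called 0 and DESeq2 called 0, and 3 had an unadjusted p under 0.05. Of the 7, 2 were lower without the 6 cells, and 4 were lower in the cells with at least 3 of the 4 markers. Erythroid markers summed to 1.85, 437 and 92.2 CPM against 2.05, 1242.5 and 177 CPM, and of 8 tested edgeR called 0 and DESeq2 called 0, with 0 at an unadjusted p under 0.05. With the embryo as a block 4 of the 8 were lower, and without the 6 cells 0 of the 6 then tested passed. The part of these tissues in the results was not tested.

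The next comparison was with 361 barcodes that held Tcf15 and Aldh1a2 and no Tbx6, Sox2, Myl7 or Isl1 UMI (107, 160 and 94 by embryo). Of these 324 (89.8%) also met the rule's conditions on Tcf15 and the 4 markers, and by the rule only their Aldh1a2 UMIs parted them from the cells. Position in the embryo was not recorded for either class. The Tcf15+ Aldh1a2- cells were lower in Meox1, Pcdh8 and Dll1, genes of somites and presomitic mesoderm, and higher in Cyp26a1 and Igfbp5. Of 8172 genes tested 68 passed (0.832% of the genes tested), with 26 higher (0.318%) and 42 lower (0.514%). The count was 18 without embryo 2 and 9 without embryo 3, and 114 without embryo 1. DESeq2 called 71 (35 higher and 36 lower). Of 8 head mesoderm markers tested edgeR called 0 and DESeq2 called 0, and 2 had an unadjusted p under 0.05, with a median of 0.17. By edgeR 1 of the 8 was higher without the 6 cells. Foxc1 had a log2 fold change of -0.70 (adjusted p = 0.152 by edgeR) and Prrx1 one of 0.19 (adjusted p = 0.941 by edgeR). The 14 markers summed to 507, 684 and 453 CPM in the cells and 643, 578 and 433 CPM in Tcf15+ Aldh1a2+ barcodes.

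Of 9 somite and presomitic markers tested in this comparison 4 were lower (Meox1, Dll1, Dll3, Rspo3) and 0 higher, with a median of -1.76 against -0.0014 over all genes tested. Dll1 and Dll3 held 8 and 14 UMIs in the cells and met the low-count filter through the Tcf15+ Aldh1a2+ sums. The count and the median are therefore a description only. Meox1 stood at 53.6, 117 and 85.7 CPM against 378, 333 and 218 CPM. The highest embryo of the cells lay well under the lowest of the Tcf15+ Aldh1a2+ barcodes, and 13.8% of all genes tested had groups that did not overlap (log2 fold change -1.82, SE 0.25, adjusted p = 0.005 by edgeR). Pcdh8, a protocadherin of the somite boundary, stood at 1.85, 2.27 and 1.62 CPM against 52.4, 43.7 and 37.6 CPM, on 4 UMIs in the cells against 298 (adjusted p = 2.0e-04 by edgeR). All 3 sums of the cells lay under the level of 3 UMIs, so the size of the fall is uncertain. Pcdh19, another protocadherin, had a log2 fold change of -4.41 (SE 0.43) on 14 UMIs in the cells, 8 of them in 1 cell. Dll1, a Notch ligand of presomitic mesoderm, stood at 5.55, 2.27 and 4.85 CPM against 19.8, 23.3 and 25.0 CPM without overlap (log2 fold change -2.49, SE 0.38, adjusted p = 0.0109 by edgeR). Hoxb1 fell by 2.87 on the log2 scale, Car3, a carbonic anhydrase gene, by 2.69, Lhx1, a LIM homeobox gene, by 2.44, Foxb1 by 2.28 and Dll3 by 2.24.

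The retinoic acid genes moved both ways. Cyp26a1 stood at 86.9, 47.6 and 50.1 CPM against 16.7, 12.7 and 15.03 CPM in Tcf15+ Aldh1a2+ barcodes, without overlap (log2 fold change 2.02, SE 0.26, adjusted p = 0.0043 by edgeR). Crabp1, a cytoplasmic retinoic acid carrier, stood at 176, 230 and 222 CPM against 681, 616 and 594 CPM (log2 fold change -1.58, SE 0.12, adjusted p = 1.4e-04 by edgeR). Stra6, a retinol transporter, also fell, by 1.36 on the log2 scale. Aldh1a2 itself was part of both definitions and is not counted. Cdkn1c, an imprinted inhibitor of the cell cycle, stood at 248, 191 and 223 CPM against 101, 81.8 and 92.1 CPM, the only call among 21 cell cycle genes (log2 fold change 1.26, SE 0.14, adjusted p = 0.0013 by edgeR). The Trh-rich cell held 19.8% of the Cdkn1c UMIs, and without the 6 cells embryo 1 stood at 81.0 CPM, below all 3 Tcf15+ Aldh1a2+ sums. The log2 fold change was then 0.88 (adjusted p = 0.157 by edgeR), and it was 0.34 in the cells with at least 3 of the 4 markers (adjusted p = 0.696 by edgeR). Igfbp5 stood at 190, 208 and 77.6 CPM against 35.7, 51.7 and 23.8 CPM (log2 fold change 2.08, SE 0.33). Il17rd, which encodes an inhibitor of FGF signalling, had a log2 fold change of 1.77, and of 1.57 without the 6 cells (adjusted p = 0.0731 by edgeR).

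The endothelial genes Kdr and Etv2 were among the 8 largest rises of this comparison, and their values differed between embryos. Kdr, a receptor for vascular endothelial growth factor, stood at 18.5, 95.3 and 162 CPM against 18.2, 11.9 and 23.8 CPM. Embryo 1 overlapped the Tcf15+ Aldh1a2+ barcodes (log2 fold change 2.41, SE 0.49, adjusted p = 0.0493 by edgeR). Etv2, the transcription factor that starts the endothelial lineage, stood at 27.7, 160 and 178 CPM against 19.4, 29.2 and 33.8 CPM with the same overlap (log2 fold change 2.21, SE 0.45, adjusted p = 0.0462 by edgeR). With only the 87 Tbx1+ cells, the log2 fold change of Kdr was 0.88 (adjusted p = 0.754 by edgeR) and that of Etv2 was -0.27. Ecscr, another endothelial gene, went from 2.30 to 1.90 (adjusted p = 0.327 by edgeR), and Emilin1 from 1.58 to 0.99 (adjusted p = 0.263 by edgeR). The fold changes of Kdr, Etv2 and Emilin1 were thus smaller in the Tbx1+ cells, while that of Ecscr stayed large and lost only its call. Ecscr held 27 UMIs in Tbx1+ and 28 UMIs in Tbx1- cells. Ramp2, a receptor partner of endothelium and mesenchyme, had a log2 fold change of 1.59 with all cells and of 1.00 with Tbx1+ cells only (adjusted p = 0.0395 by edgeR). It stood at 60.7, 62.7 and 104 CPM in Tbx1+ cells and at 263 and 181 CPM in the Tbx1- cells of embryos 2 and 3 (log2 fold change -1.54, SE 0.27, adjusted p = 0.0031 by edgeR). In thinned barcodes Ramp2 had a log2 fold change of 0.52 (adjusted p = 0.716 by edgeR).

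The comparison with heart progenitors used 40 barcodes with Isl1 and Tbx1 UMIs and none of Tcf15, Aldh1a2, Tbx6, Sox2, Myl7, Foxa2 or Epcam (4, 25 and 11 by embryo). The Tcf15+ Aldh1a2- cells were lower in heart transcription factors and in Id2 and Id1, and higher in Ppp1r1a and Meox1. Of 5142 genes tested 34 passed (0.661% of the genes tested), with 19 higher (0.37%) and 15 lower (0.292%). The count was 97 with the embryo as a block, 7 without embryo 2 and 59 without embryo 1, whose Isl1+ Tbx1+ sum held 4 barcodes. Of 8 heart markers tested 4 were lower and 0 higher, with a median of -1.94. Nkx2-5, a homeobox factor of heart progenitors, stood at 9.24, 2.27 and 0 CPM against 57.8, 58.1 and 63.3 CPM without overlap (log2 fold change -3.99, SE 0.59, adjusted p = 0.0018 by edgeR). Mef2c, a muscle transcription factor, stood at 18.5, 12.5 and 8.09 CPM against 135, 168 and 49.2 CPM (log2 fold change -3.26, SE 0.40, adjusted p = 3.5e-04 by edgeR). Hand2, a bHLH factor of heart and limb, stood at 0, 6.81 and 21.03 CPM against 125, 93.6 and 56.3 CPM (log2 fold change -3.22, SE 0.54). Gata4, a zinc finger heart factor, had a log2 fold change of -2.68 (SE 0.54). The lowest Isl1+ Tbx1+ embryo lay above the highest embryo of the cells for each of these 4 genes, and 13.1% of all genes tested had groups that did not overlap. Nkx2-5, Mef2c, Hand2 and Gata4 held 7, 26, 19 and 13 UMIs in the cells and met the low-count filter through the Isl1+ Tbx1+ sums. Only a lower call was open to them, so the count of 4 and the list median are a description only.

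Id2, a target of BMP signalling, stood at 104, 61.3 and 104 CPM against 327, 407 and 563 CPM in this comparison (log2 fold change -2.30, SE 0.23, adjusted p = 2.6e-05 by edgeR), and Id1 had a log2 fold change of -1.09. Igfbpl1, Rbm24, which encodes an RNA-binding protein of heart muscle, and Cfc1, a coreceptor of Nodal, were lower by the same rule. Ppp1r1a stood at 359, 253 and 267 CPM against 38.5, 12.9 and 42.2 CPM, far apart in every embryo (log2 fold change 3.50, SE 0.33, adjusted p = 2.6e-05 by edgeR). Meox1 stood at 53.6, 117 and 85.7 CPM against 0, 6.46 and 21.1 CPM (log2 fold change 3.25, SE 0.56, adjusted p = 0.0059 by edgeR). Cer1 held 80 UMIs in the cells and 1 UMI in the Isl1+ Tbx1+ barcodes, a ratio of 21.8 per UMI sequenced (exact 95% counting interval 3.801 to 871). Mid1ip1 (103 against 2 UMIs) and the receptor gene Notch1 (84 against 2 UMIs) also passed. The yolk sac genes Afp, Apob and Rbp4 were among the 8 largest rises as well, and 3 cells held 80.2%, 92.0% and 87.7% of their UMIs. Without the 5 Ttr-rich or Hbb-bh1-rich cells, Rbp4 had a log2 fold change of 0.28 (adjusted p = 0.986 by edgeR) and Afp and Apob were too low to be tested.

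Against 453 presomitic barcodes with at least 2 Tbx6 UMIs and no Tcf15, Sox2, Myl7 or Isl1 UMI (207, 130 and 116 by embryo), many more genes passed. The Tcf15+ Aldh1a2- cells were lower in 7 of 14 FGF genes, 10 of 16 Wnt genes, 6 of 11 Notch genes and 11 of 18 Hox genes, and higher in 2, 3, 1 and 0 of them. Of 8318 genes tested 683 passed (8.21% of the genes tested), with 340 higher (4.09%) and 343 lower (4.12%), and the count was 430 without embryo 3. Of 11 somite and presomitic markers 7 were lower and 2 higher (Pax3, Cer1), with a median of -3.78. Among the 7, Msgn1, Lfng, Dll1 and Hes7 held 1, 4, 8 and 8 UMIs in the cells and met the low-count filter through the Tbx6+ sums. Only a lower call was open to such genes, so the counts and the median are a description only. The same holds for FGF, Wnt, Notch and Hox genes near 0 UMIs in the cells. Dll1 stood at 5.55, 2.27 and 4.85 CPM against 158, 124 and 102 CPM (log2 fold change -5.04, SE 0.32, adjusted p = 1.9e-07 by edgeR). Hes7 stood at 11.1, 1.13 and 1.62 CPM against 173, 150 and 170 CPM (log2 fold change -5.38, SE 0.33, adjusted p = 1.5e-07 by edgeR). Both were far below in all 3 embryos. The ligand genes Fgf4, Wnt3a and Fgf17 each held 1 UMI in the cells, against 260, 246 and 197 UMIs, ratios of 63.9 (exact 95% counting interval 11.4 to 2535), 60.5 (10.8 to 2399) and 48.4 (8.59 to 1923). Of the other FGF, Wnt and Notch genes tested 5, 3 and 4 did not pass. The only Notch gene that was higher, the target gene Hes1, did not pass without the 6 cells (log2 fold change 0.65, adjusted p = 0.231 by edgeR). The neuropeptide gene Gal had a log2 fold change of -5.39, and Mpzl2 and Htra1 completed the 8 largest falls with 1 and 2 UMIs in the cells.

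On the side of the rises, Pkdcc, which encodes a secreted kinase of mesenchyme, stood at 161, 146 and 184 CPM against 4.02, 10.1 and 6.70 CPM in Tbx6+ barcodes (log2 fold change 4.71, SE 0.24, adjusted p = 2.8e-08 by edgeR). Irx5, a homeobox gene, stood at 135, 118 and 84.1 CPM against 3.17, 5.04 and 7.26 CPM (log2 fold change 4.57, SE 0.28). Prrx1 stood at 35.1, 77.1 and 63.1 CPM against 3.81, 3.36 and 3.91 CPM (log2 fold change 3.97, SE 0.32, adjusted p = 1.5e-06 by edgeR). None of the 3 overlapped between groups, as was so for 23.4% of all genes tested. Igfbp5 (5.63), the endothelial gene Kdr (5.21), Vamp5 (5.02), the hyaluronan linker gene Hapln1 (4.19) and the steroid dehydrogenase gene Hsd11b2 (4.15) were the other large log2 fold changes. Cyp26a1 rose by 3.50 on the same scale. Of 6 head mesoderm markers tested 3 were higher (Prrx1, Six2, Eya1), with a median of 1.62 over the 6. Snai1, a repressor of epithelial genes, was lower (log2 fold change -1.13, SE 0.30). Six2 held 39 UMIs in the cells against 3 UMIs, a ratio of 52.9 (exact counting interval 16.8 to 267). Prrx1 and Six2 met the low-count filter through the sums of the cells. Only a higher call was open to such genes, so the count of 3 and the median are a description only. The same holds for the other rises of genes that are low in Tbx6+ barcodes, and for list counts with them. Without the 6 cells Snai1 had a log2 fold change of -1.07 (adjusted p = 0.0546 by edgeR). Foxc1 (log2 fold change -0.20, adjusted p = 0.653 by edgeR) and Fst (0.29, adjusted p = 0.485 by edgeR) did not pass. Of 12 matrix genes 6 were higher and 0 lower, with a median of 0.94. Markers of other tissues rose beside them. Of 4 endothelium markers 3 were higher (Kdr, Etv2, Egfl7), of 7 endoderm markers 2 (Sox17, Spink1), of 3 surface ectoderm markers 2 (the keratin genes Krt8 and Krt18), and Hbb-bh1, the 1 erythroid marker tested, was higher too. Of 3 neural plate markers 2 were higher (Otx2, Irx3), and of 6 heart markers 2 (Gata6, Fgf10). Of 6 markers of lateral plate, allantois and extraembryonic mesenchyme Ahnak was higher and Osr1 lower. Etv2 stood at 27.7, 160 and 178 CPM against 8.68, 15.7 and 11.7 CPM in Tbx6+ barcodes. Spink1 stood at 1327, 186 and 128 CPM against 30.3, 152 and 84.9 CPM, and 1 cell held 40.0% of its UMIs in the cells. Without the 6 cells Sox17, Spink1, Krt8 and Krt18 did not pass, Hbb-bh1 was too low to be tested, and Spink1 had a log2 fold change of -1.54 (adjusted p = 0.148 by edgeR). The part of these tissues in the rises was not tested.

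**Figure D3:**
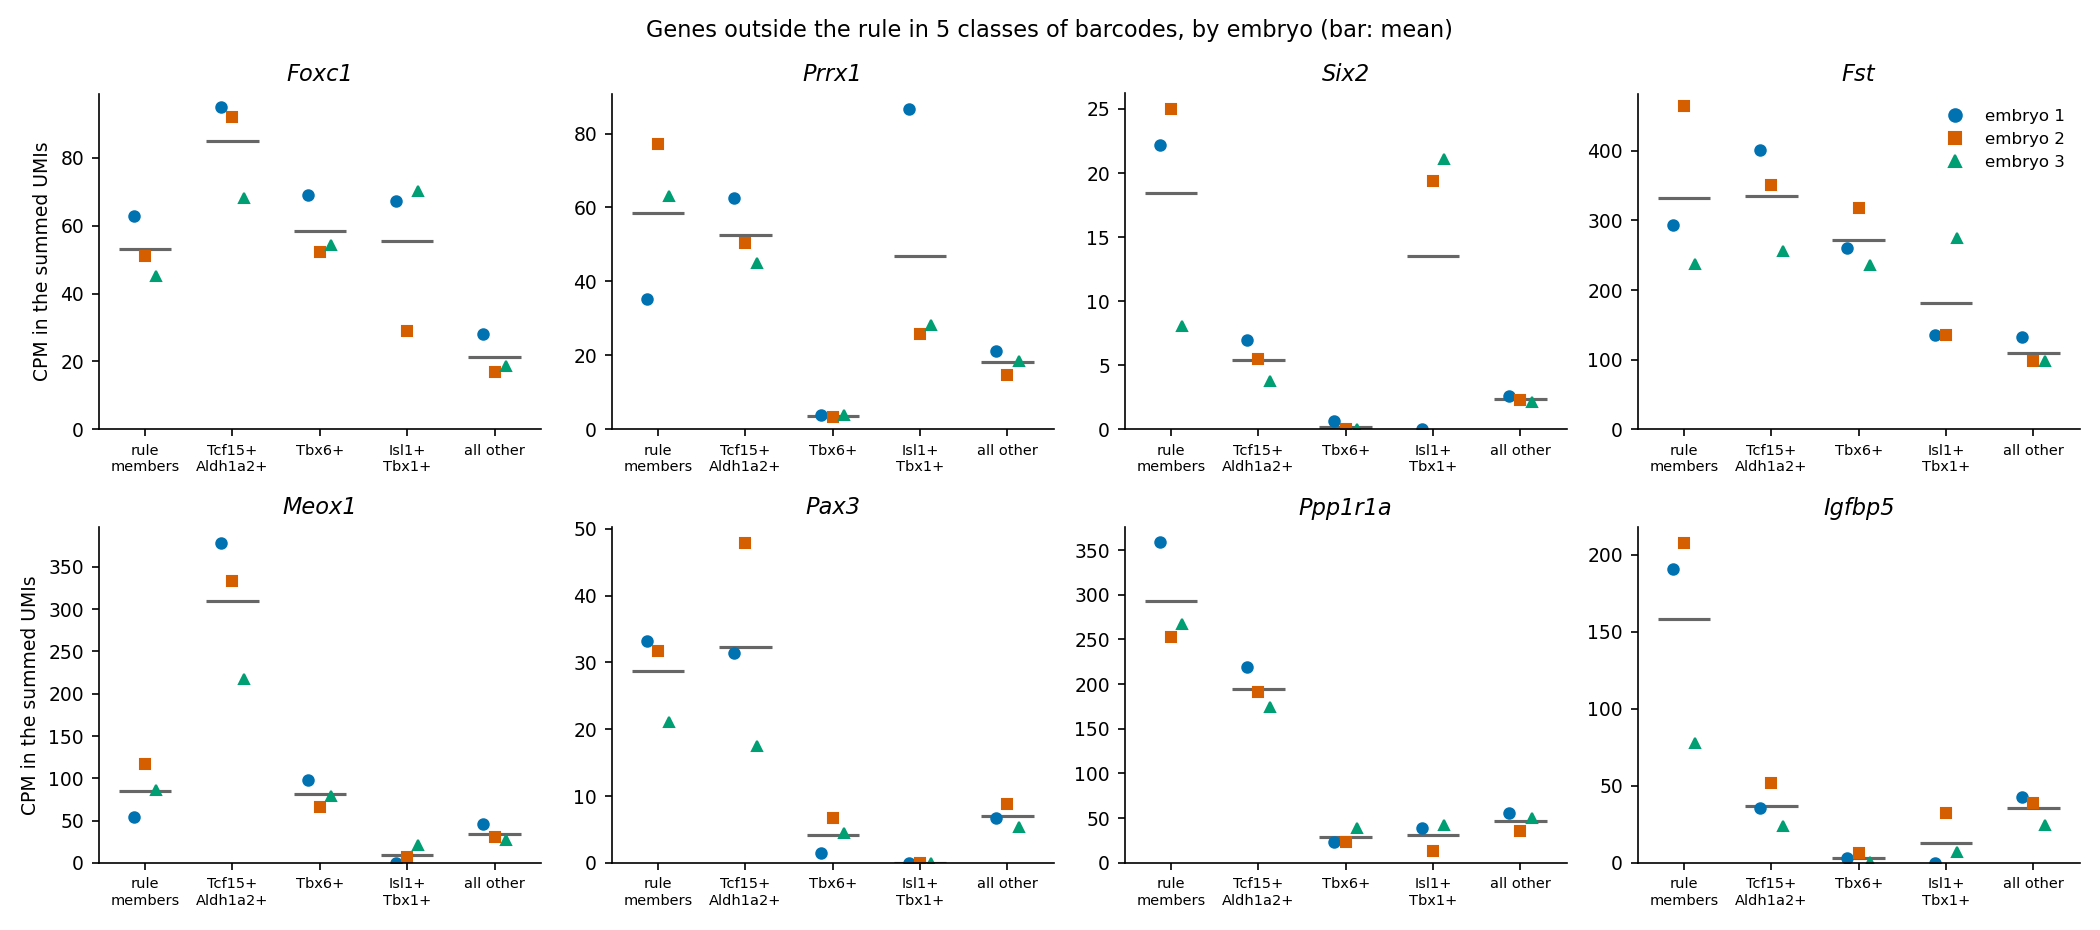
CPM in the summed UMIs (vertical axes, linear from 0) of 8 genes outside the rule in Tcf15+ Aldh1a2- cells (rule members), 3 neighbouring classes and all other barcodes, with 1 point per embryo and a bar at the mean. Prrx1 is under 4 CPM in Tbx6+ barcodes, Meox1 is highest in Tcf15+ Aldh1a2+ barcodes (378, 333 and 218 CPM), and Ppp1r1a and Igfbp5 are highest in the cells. The Isl1+ Tbx1+ point of embryo 1 rests on 4 barcodes.

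The Hox genes, which mark position along the body axis by paralogue group, were low in the cells at the anterior end. Of 34 Hox genes tested against all other barcodes 3 were lower, Hoxb1 and Hoxb4 among them, 0 were higher and 31 did not pass, with a median of -0.51. Without the 6 cells Hoxb4 had a log2 fold change of -1.54 (adjusted p = 0.0695 by edgeR). Against Tbx6+ barcodes 11 of 18 were lower, with a median of -2.06, and against Tcf15+ Aldh1a2+ barcodes 2 of 11 were, Hoxb1 among them. The group 1 genes summed to 25.9, 64.7 and 58.2 CPM in the cells, 262, 216 and 268 CPM in Tcf15+ Aldh1a2+ barcodes, 428, 316 and 333 CPM in Tbx6+ barcodes and 190, 122 and 144 CPM in all other barcodes. The highest embryo of the cells was below the lowest of each of these 3 classes. Groups 2 to 4 summed to 42.5, 60.1 and 66.3 CPM against 123, 104 and 99.5 CPM in all other barcodes. In Isl1+ Tbx1+ barcodes group 1 summed to 67.4, 77.5 and 91.4 CPM, and groups 2 to 4 to 77.0, 48.4 and 63.3 CPM, which overlapped the cells. Of 3 Hox genes tested against Isl1+ Tbx1+ barcodes edgeR called 0. Groups 5 to 8 summed to 75.8, 74.9 and 92.2 CPM in the cells (0, 79.3 and 83.9 CPM without the 6 cells), 17.5, 56.8 and 56.4 CPM in Tcf15+ Aldh1a2+ barcodes and 84.0, 117 and 91.5 CPM in all other barcodes. The cells were above the Tcf15+ Aldh1a2+ barcodes in embryos 2 and 3 with or without the 6 cells, and in embryo 1 all UMIs of these groups lay in the Ttr-rich and Trh-rich cells. By the presence of a Tbx1 UMI this order was not kept. The Tbx1+ cells had 90.0, 12.5 and 17.9 CPM of groups 5 to 8, in embryos 2 and 3 below the Tcf15+ Aldh1a2+ barcodes. The Tbx1- cells had 10.4, 238 and 181 CPM. For groups 9 to 13 the cells had 22.2, 60.1 and 79.3 CPM against 42.1, 64.4 and 60.2 CPM in all other barcodes, and the groups overlapped. The Tcf15+ Aldh1a2+ barcodes had 1.94, 26.7 and 31.9 CPM of groups 9 to 13. Without the 6 cells the cells had 0, 63.7 and 83.9 CPM of these groups, 35.4, 68.5 and 50.7 CPM of group 1 and 32.9, 63.7 and 68.2 CPM of groups 2 to 4. Within the cells, groups 9 to 13 summed to 24.7, 3.14 and 2.98 CPM in Tbx1+ cells and to 209 and 170 CPM in the Tbx1- cells of embryos 2 and 3. The 4 Tbx1- cells of embryo 1 gave 10.4 CPM. These sums over paralogue groups were not tested.

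**Figure D4:**
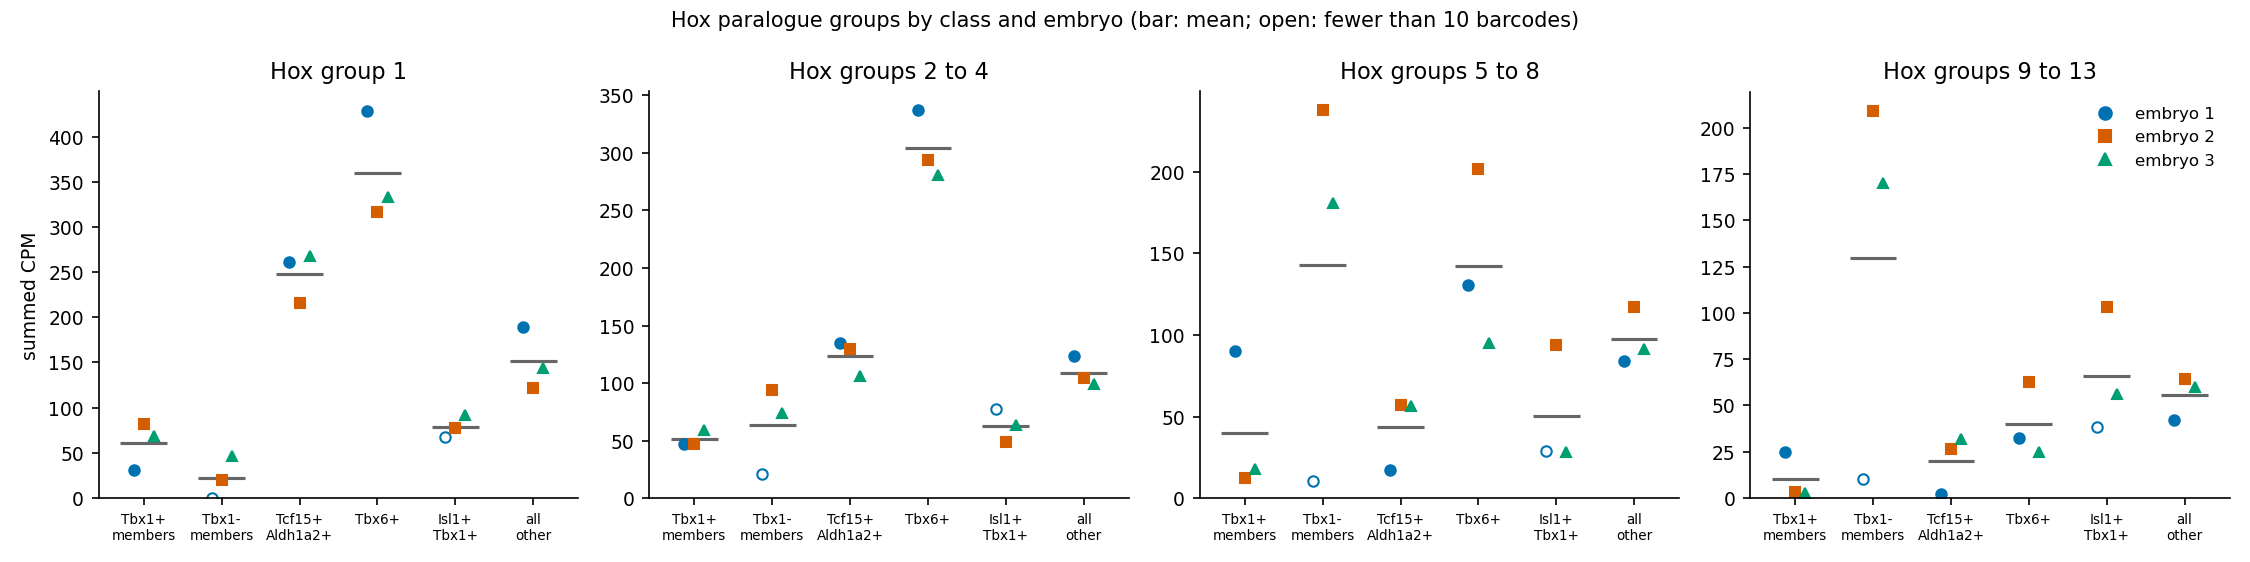
Summed CPM (vertical axes, linear from 0) of the Hox genes by paralogue group in 6 classes, with 1 point per embryo, a bar at the mean and open points for sums over fewer than 10 barcodes. Group 1 is low in both kinds of Tcf15+ Aldh1a2- cells, and groups 9 to 13 are high in the Tbx1- cells of embryos 2 and 3 (209 and 170 CPM) and near 3 CPM in their Tbx1+ cells.

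The cells were next split by Tbx1, a gene of the rule. The Tbx1- cells were also lower in the rule gene Tcf15, at 208, 275 and 103 CPM against 385, 563 and 405 CPM in Tbx1+ cells, and the part of Tcf15 level in the split was not tested. The 87 Tbx1+ cells (15, 50 and 22 by embryo) were compared with the 38 Tbx1- cells (4, 16 and 18), with the sum over 4 cells in embryo 1 left out, so that 3 sums stood against 2. Median depths were alike, at 13131 and 13413 UMIs. Tbx1+ cells were higher in Fgf8, Fst, Irx3 and Irx5 and lower in 5 of 8 endothelium markers and in Tbx4, Hoxd9 and Cdx4. Of 4859 genes tested 141 passed (2.9% of the genes tested), with 46 higher (0.947%) and 95 lower (1.96%), and 248 passed with the embryo as a block and 249 without the 6 cells. When the 4-cell sum was kept 37 passed, and when the rule was applied to barcodes thinned to 5000 UMIs 1 passed.

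Fgf8, a ligand of pharyngeal and cardiac mesoderm growth, stood at 83.2, 111 and 44.7 CPM in Tbx1+ cells against 8.20 and 14.2 CPM in the Tbx1- cells of embryos 2 and 3. All Tbx1+ embryos were above (log2 fold change 2.88, SE 0.52, adjusted p = 0.0047 by edgeR). The Tbx1- value of embryo 2 lay under the level of 3 UMIs in that sum, 12.3 CPM. Fgf8 and Irx5 met the low-count filter through the Tbx1+ sums. Only a higher call was open to them, so these 2 calls are a description only. The same holds for the rises below that are near 0 UMIs in Tbx1- cells. Fst stood at 337, 591 and 399 CPM against 131 and 46.0 CPM (log2 fold change 2.40, SE 0.32, adjusted p = 4.1e-04 by edgeR). Irx5 stood at 148, 147 and 143 CPM against 41.0 and 14.2 CPM (log2 fold change 2.48, SE 0.35, adjusted p = 5.0e-04 by edgeR). Neither gene overlapped, as was so for 33.3% of all genes tested, and the 4-cell sum of embryo 1 held 93.4 CPM of Fst and 72.7 CPM of Irx5, below the Tbx1+ cells too. Over the alternatives the log2 fold change ranged from 0.63 to 3.56 for Fgf8, from 0.46 to 3.04 for Fst and from 0.44 to 3.38 for Irx5. Tex15, Arl4a and Hmgn3 also rose, with log2 fold changes from 2.49 to 2.69, as did Foxp4, a forkhead gene, and Fhdc1. The latter 2 each held 53 UMIs in Tbx1+ cells against 3 in the Tbx1- sums tested, a ratio of 6.55 (exact 95% counting interval 2.12 to 32.8). In the 4-cell sum of embryo 1 Foxp4 stood at 41.5 CPM, above the 36.0 CPM of the Tbx1+ cells of that embryo, and Fhdc1 at 10.4 CPM, below them. That Fhdc1 value is under the level of 3 UMIs in the 4-cell sum, 31.1 CPM, so its order is uncertain. In cells thinned before the rule, Arl4a turned to -0.36.

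Of 8 endothelium markers tested in this split 5 were lower in Tbx1+ cells (Kdr, Etv2, Egfl7, Tal1, Lmo2) and 0 higher, with a median of -2.82 against 0.02 over all genes tested, and 7 were lower without the 6 cells. Kdr and Etv2 held 44 and 32 UMIs in Tbx1+ cells and, like Tal1, met the low-count filter through the Tbx1- sums. Only a lower call was open to such genes, so these counts and the median are a description only. The same holds for the genes below that are near 0 UMIs in Tbx1+ cells. Etv2 stood at 20.2, 29.8 and 11.9 CPM in Tbx1+ cells against 500 and 375 CPM in Tbx1- cells (log2 fold change -4.24, SE 0.27, adjusted p = 1.7e-07 by edgeR). Kdr stood at 18.0, 22.0 and 65.5 CPM against 287 and 276 CPM (log2 fold change -3.09, SE 0.34, adjusted p = 4.7e-05 by edgeR). The 4 Tbx1- cells of embryo 1 held 62.3 CPM of Etv2 and 20.8 CPM of Kdr. The first lay above all Tbx1+ sums and far below the other Tbx1- sums, and the second was near the Tbx1+ cells of that embryo. The endothelial genes Plvap, Gja4 and Sox7 held 1, 2 and 2 UMIs in Tbx1+ cells against 37, 37 and 17. Hhex, a homeobox gene of early endothelium and endoderm, had a log2 fold change of -4.24. Tbx4, a T-box gene of allantois and hindlimb, held 1 UMI against 26, the Hox gene Hoxd9 1 against 20 and Cdx4, a caudal homeobox gene, 3 against 34. The ratio for Cdx4 was 30.5 (exact 95% counting interval 9.61 to 155). The erythroid list had 1 gene tested, Hbb-bh1, which did not pass, and it summed to 2.25, 583 and 167 CPM in Tbx1+ cells and 53.3 and 3.54 CPM in Tbx1- cells. The list of lateral plate, allantois and extraembryonic mesenchyme summed to 101, 56.5 and 98.3 CPM in Tbx1+ cells and 197 and 698 CPM in Tbx1- cells. In the 4 Tbx1- cells of embryo 1 it summed to 41.5 CPM, below the Tbx1+ cells of that embryo. These 4 cells also held 0 CPM of Tal1 and Lmo2, against 4.50 and 38.2 CPM in the Tbx1+ cells of embryo 1. In this 4-cell sum 3 UMIs are 31.1 CPM, so its 0 CPM of Tal1 cannot be set below 4.50 CPM. The 20.8 CPM of Kdr also lies under that level. Foxc1 (log2 fold change 1.03, SE 0.39, adjusted p = 0.201 by edgeR) and Prrx1 (1.24, SE 0.42, adjusted p = 0.146 by edgeR) did not pass.

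**Figure D5:**
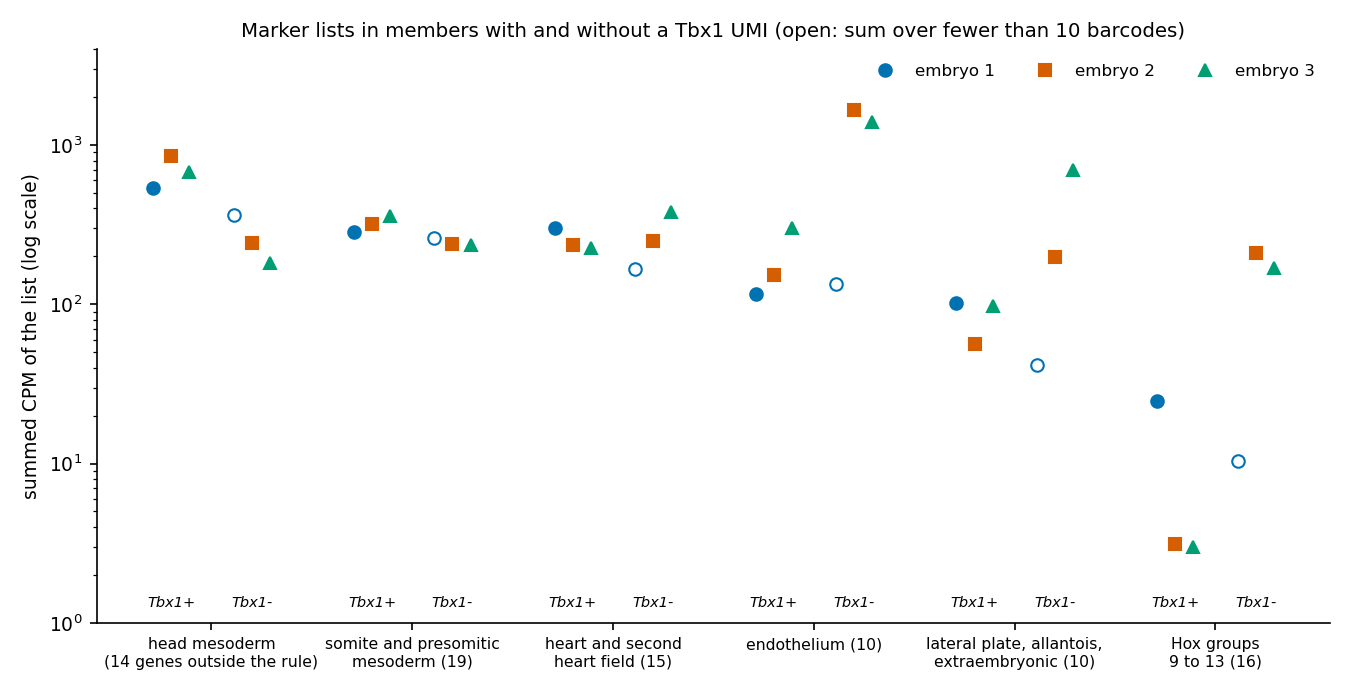
Summed CPM (vertical axis, log scale) of 5 marker lists and of Hox groups 9 to 13 in Tcf15+ Aldh1a2- cells with a Tbx1 UMI (left of each pair) and without one (right), 1 point per embryo and open points for the sum over 4 cells. The endothelium list reaches 1665 and 1399 CPM in Tbx1- cells of embryos 2 and 3, and the head mesoderm list is lower there (242 and 181 CPM) than in Tbx1+ cells (538, 853 and 682 CPM). Fst is the most abundant gene of the head mesoderm list, at a mean over 3 embryos of 443 CPM in Tbx1+ and 90.2 CPM in Tbx1- cells. It was the only call among 3 genes of that list tested.

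Detection in single cells was set against barcodes that should lack head mesoderm transcripts. Fst was detected in 75.2% of the 125 cells at a median of 13171 UMIs, in 10.5% of 2351 Ttr-rich endoderm barcodes at a median of 18341 UMIs and in 6.03% of 962 globin-rich barcodes at a median of 15773.5 UMIs. Ppp1r1a was detected in 74.4% against 9.44% and 5.41%, and Prrx1 in 56.8% against 5.61% and 2.18%. Foxc1 was detected in 47.2% against 5.40% and 3.33%, Pax3 in 36% against 3.36% and 1.04%, and Six2 in 25.6% against 0.893% and 0.832%. For these 6 genes the cells stood above both background classes although their depth was lower. Of the 125 cells 3 are also Ttr-rich and 2 also globin-rich, and embryo 1 held 0 globin-rich barcodes, so that this background covers 2 embryos. With each cell thinned to 5000 UMIs the pooled shares in the cells were 60.8% for Fst, 33.6% for Prrx1, 21.6% for Foxc1, 14.4% for Six2 and 12% for Pax3. In these droplet counts a cell without a UMI of a gene may still express it.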

How the data were processed

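Single cell RNA was captured with the 10x Genomics 3′ v3 kit. Per the submitters' processing notes the reads were processed with Cell Ranger 3.1.0 against mm10, and the files also list an EGFP feature. The deposited values are the authors' raw UMI counts of 31054 features in 23533 barcodes called as cells, without normalization or quality control, and every feature names a gene. Barcodes were kept by the study's limits, at 1500 to 8500 genes (7500 in embryo 2) and at most 10% mitochondrial UMIs. The study then removed 3 clusters as doublets or empty droplets, a step that was not repeated, so such barcodes may remain. Of the 450, 505 and 410 that failed, 0 met the rule. Kept barcodes held 195477519, 145760007 and 166042809 UMIs, so that 3 UMIs, the limit a count of 0 allows, are 5.55, 3.40 and 4.85 CPM in the summed cells. Intervals and limits cover counting error only. Coordinates are from GENCODE M21 (GRCm38) for 31011 of the features.

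The members and all gene lists were chosen with earlier results of these data known. UMIs were summed per embryo and class. Sums were compared with edgeR 4.0.16 in R 4.3.3 (TMM, filterByExpr, glmQLFit, glmQLFTest), a gene being called at an adjusted p under 0.05 (Benjamini-Hochberg), with the 10 rule genes (and Foxa2 and Epcam against Isl1+ Tbx1+ barcodes) left out of the tests. Sums over fewer than 10 cells were left out of the Tbx1 split only. DESeq2 1.42.0 was an alternative. The script was tested on simulated data. Doublets were not removed in the sums, because Scrublet in scanpy 1.11.5 marked 1 barcode per embryo at its own threshold, and removal of the top 6% of scores was an alternative. Python 3.11.15, numpy 2.4.6, scipy 1.17.1 and pandas 2.3.3 were used.

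Genes were named when they were rule genes or list genes described by count, or among the 15 largest rises and 10 largest falls (8 each way in the other comparisons) with an adjusted p under 0.05, the same sign in every embryo and at least 20 CPM in the higher class. List examples were the most abundant genes and the largest changes, and other list members are named where a count was 5 or fewer. A few genes that met these conditions are not reported here. The 2 sums of an embryo come from 1 animal, so the replicate number pairs them. The correlation of their deviations from the class means, across genes, was 0.195, 0.107 and 0.375 for the cells and all other barcodes. Alternatives were the embryo as a block, no filter on low counts, leaving out 1 embryo at a time, barcodes thinned to 5000 UMIs, Tcf15 of at least 2 UMIs, at least 3 of 4 markers, Aldh1a2 of at least 3 UMIs, removal of top doublet scores and removal of barcodes under 0.5% mitochondrial UMIs. Added after seeing the data were the Ttr-rich background class (at least 50 UMIs), the 4-cell Tbx1- sum kept, removal of 5 Ttr-rich or globin-rich cells, removal of these and the Trh-rich cell (at least 50 UMIs), and Tbx1+ cells only.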

Additional observations from a re-analysis of the deposited data

Results flagged for a closer look

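The EGFP feature, which no comparison used, held 63 UMIs over all barcodes of these wild-type embryos, 31 in embryo 1, 0 in embryo 2 and 32 in embryo 3. It was picked out because a signal in embryos without a labelled transgene lies above the 3 UMIs that a count of 0 allows, and its source was not tested. Only 1 value met a rule for a closer look.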

How the results depend on the processing

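Only 3 embryos were measured, and the deeper libraries gave fewer cells under the rule. Against all other barcodes, where 120 genes passed, DESeq2 called 403, no filter on low counts 225, the replicate block (the pairing of the sums of an embryo) 388, barcodes thinned to 5000 UMIs 360, at least 3 of 4 markers 356, removal of the 5 Ttr-rich or globin-rich cells 210, removal of these and the Trh-rich cell 335 and Tbx1+ cells only 210, and leaving out 1 embryo gave 3 to 366 (3 without embryo 3, 14 without embryo 2, 366 without embryo 1). Against Tcf15+ Aldh1a2+ barcodes, where 68 passed, no filter gave 343, at least 3 of 4 markers 114, removal of top doublet scores 110, Aldh1a2 of at least 3 UMIs 135 and leaving out 1 embryo 9 to 114. Against Isl1+ Tbx1+ barcodes, where 34 passed, no filter gave 132, the block 97, thinning 16, at least 3 of 4 markers 53, Tbx1+ cells only 52 and leaving out 1 embryo 7 to 59. Against Tbx6+ barcodes, where 683 passed, no filter gave 1192, thinning 288 and leaving out 1 embryo 430 to 582. Between Tbx1+ and Tbx1- cells, where 141 passed, DESeq2 gave 70, no filter 322, the block 248, removal of the 6 cells 249, thinning 1 and the 4-cell sum kept 37. Leaving out 1 embryo gave 115 to 159 there, but without embryo 2 or 3 a single Tbx1- sum was left, which was assumed to vary like the Tbx1+ sums. The split could not be fitted with Tcf15 of at least 2 UMIs or with at least 3 of 4 markers, where too few Tbx1- sums were left. Thinning moved the share of barcodes that met the rule to 1.38%, and the mean detection over embryos to 26.3% for Foxc1, 30.7% for Prrx1, 59.9% for Fst, 23.3% for Meox1, 11.7% for Pax3 and 13.9% for Kdr. The log2 fold changes that turned were Etv2 against Tcf15+ Aldh1a2+ barcodes (-0.27 with Tbx1+ cells only), Ttr against Isl1+ Tbx1+ barcodes (-0.16 without the 5 and -0.27 without the 6 cells), Spink1 (-1.54 without the 6 cells), Krt8 (-0.059 at 3 of 4 markers), Col4a1 (-0.016) and Col4a2 (-0.32, both thinned) against Tbx6+ barcodes, and Arl4a (-0.36) and Fzd2 (-0.094) in the thinned Tbx1 split. The cause of these changes was not tested. Of the values of single named or listed genes under an alternative, 546 kept direction and side of the threshold and 112 lost the threshold against all other barcodes, 325 and 76 against Tcf15+ Aldh1a2+, 199 and 44 against Isl1+ Tbx1+, 1216 and 111 against Tbx6+ barcodes and 289 and 54 in the Tbx1 split.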
